A study of Mus musculus with 16 samples.

Results

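The integrated stress response genes described here are the 10 genes Atf4, Atf5, Atf3, Ddit3, Trib3, Ppp1r15a, Chac1, Asns, Psat1 and Phgdh, chosen by name as members of the ATF4 pathway and found by symbol among the 22375 genes of the count tables. All 10 had enough reads to be among the 15758 genes tested. They were measured by strand-specific RNA-Seq of total RNA depleted of ribosomal RNA, in mouse embryonic stem (ES) cells of strain 129/OLA grown on gelatin with LIF. The 4 groups were WT (E14TG2a) ES cells and Cfp1-/- ES cells, each untreated or treated for 6 hours with doxorubicin, a DNA-damaging topoisomerase inhibitor, at 1 μM by the treatment protocol (the treatment label of the samples reads 1 mM). Cfp1-/- ES cells lack Cxxc1, the gene of the CpG-binding protein Cfp1, a subunit of a Set1 histone methyltransferase complex. Each group had 2 biological replicates, each sequenced as 2 technical replicates, which were summed so that n = 2. The sources used here do not state how the biological replicates were separated or how many Cfp1-/- clones were used, so the p-values measure the spread between these libraries, and clone and genotype cannot be told apart.

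The integrated stress response starts when kinases that sense amino acid shortage, unfolded protein, double-stranded RNA or haem deficiency phosphorylate the translation factor eIF2alpha. Global translation then falls, while the mRNA of the transcription factor ATF4 is translated more, so that the level of the Atf4 transcript and that of the ATF4 protein need not move together. ATF4, with partners of the C/EBP family, activates further transcription factors, enzymes and transporters of amino acid supply, and regulators that restore translation or lead towards cell death. ATF3 and CHOP, the product of Ddit3, are also known from responses to DNA damage and other stresses, and Trib3 and Atf3 have inputs other than ATF4.

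The libraries held between 14880589 and 29422711 counts each. Cxxc1 had 616 to 1412 raw counts in the WT libraries and 1 to 5 in the Cfp1-/- libraries. All 10 ES cell markers examined were detected, with a summed normalized read count (reads divided by a size factor for each library) of 77736 to 103070 in untreated and 27002 to 39222 in treated cells of both lines. Technical replicates differed by sampling noise alone in 6 of 8 libraries (chi-square over its degrees of freedom, 0.998 to 1.05). The ratio was 9.61 in replicate 1 of treated WT cells and 42.9 in replicate 1 of treated Cfp1-/- cells. In the second technical replicate of the latter, 439 of 529 genes on chromosomes X and Y and on the affected stretch of chromosome 19 with at least 200 counts in the first had none, against 0 of 7791 genes elsewhere. Psat1 is the member on these chromosomes.

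Sequence around the start is shown for the 4 members whose RefSeq promoters hold a short motif of stress-responsive transcription, and for Atf4, the member with the highest level in untreated WT cells and with no such motif. Sequences are from RefSeq promoters (GRCm38.p6), located by exact match in NCBIm37 (mm9), the build of the count tables. The 250 bases before the start of each of the 12 RefSeq promoters of the 10 members were searched on both strands. The motifs were the core TGATGNAA of the C/EBP-ATF response element, which ATF4 and CHOP bind with C/EBP partners, and TGACGTCA, the cAMP response element that CREB and ATF family factors bind. The first was found in 3 of these 12 promoters (Asns, Atf3 and Chac1), against 3.45% of 32851 promoters. The second was found in 1 of the 12 (Ppp1r15a), against 1.55% of promoters. The matches lay at -23 to -16 in Asns, -110 to -103 in Atf3, -193 to -186 in Chac1 and -12 to -5 in Ppp1r15a, counted from the RefSeq start. None overlapped a match of the other motif. The match read TTGCATCA on the gene's strand in Atf3 and Chac1, and TGATGAAA in Asns. The RefSeq start of Asns lies within the gene as the count table places it, so that 45 of the 250 bases, with the match and all 30 bases shown, are inside the gene's interval. In Atf3 and Chac1 the 7 and 13 bases inside the gene's interval were left out of what is shown. Such a match is a description of the letters and not of binding. Capitals mark the matches in the sequences, which run 5′ to 3′ on the strand of the gene.
Asns, chr6:7643214-7643243, - strand: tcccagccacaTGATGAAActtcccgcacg
Ppp1r15a, chr7:52781639-52781668, - strand: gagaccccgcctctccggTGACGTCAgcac
Atf3, chr1:193007220-193007462, - strand: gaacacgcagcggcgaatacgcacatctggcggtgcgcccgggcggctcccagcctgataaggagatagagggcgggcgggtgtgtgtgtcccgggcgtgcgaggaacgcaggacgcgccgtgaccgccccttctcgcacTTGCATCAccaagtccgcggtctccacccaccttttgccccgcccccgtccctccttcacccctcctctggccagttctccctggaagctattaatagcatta
Chac1, chr2:119176728-119176964, + strand: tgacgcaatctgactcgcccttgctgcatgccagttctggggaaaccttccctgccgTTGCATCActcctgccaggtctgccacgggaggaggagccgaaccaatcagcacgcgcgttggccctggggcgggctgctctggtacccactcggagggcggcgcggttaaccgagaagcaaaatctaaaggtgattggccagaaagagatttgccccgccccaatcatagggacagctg
Atf4, chr15:80085364-80085613, + strand: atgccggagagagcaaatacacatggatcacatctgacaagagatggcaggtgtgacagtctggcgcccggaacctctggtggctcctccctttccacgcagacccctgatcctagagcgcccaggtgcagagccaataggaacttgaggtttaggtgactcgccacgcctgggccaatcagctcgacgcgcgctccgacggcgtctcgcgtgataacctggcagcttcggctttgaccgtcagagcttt

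The members span a wide range of transcript levels, which were set side by side after division by exon length in kb. The levels per kb in untreated WT cells were 2446 for Atf4, 1695 for Asns, 1044 for Psat1, 509 for Phgdh and 247 for Ppp1r15a, against a median of 92.3 per kb over all genes tested. The replicates of these 5 genes did not overlap between neighbours in this order. Ddit3, Trib3, Atf3, Atf5 and Chac1 lay under that median, at 65.8, 63.6, 41.3, 29.8 and 28.2 per kb. The replicates of Atf3, at 15.8 and 66.7 per kb, spanned those of Ddit3, Trib3, Atf5 and Chac1, so its place among them was not resolved beyond the spread. Ddit3 and Trib3 overlapped, as did Atf5 and Chac1. In untreated Cfp1-/- cells Asns came first at 2851 per kb, followed by Psat1 at 1009 and Atf4 at 473, and Chac1 was last at 2.91. In treated WT cells Atf4, at 1078 per kb with replicates at 957 and 1199, and Asns, at 1022 with replicates at 956 and 1088, overlapped. Treated Cfp1-/- cells had Asns at 1581, Psat1 at 741 and Phgdh at 387 per kb, with Atf4 at 288. Psat1 is lowered there by the run with lost counts. The plot of normalized read counts by library shows all 10 genes.

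**Figure D1:**
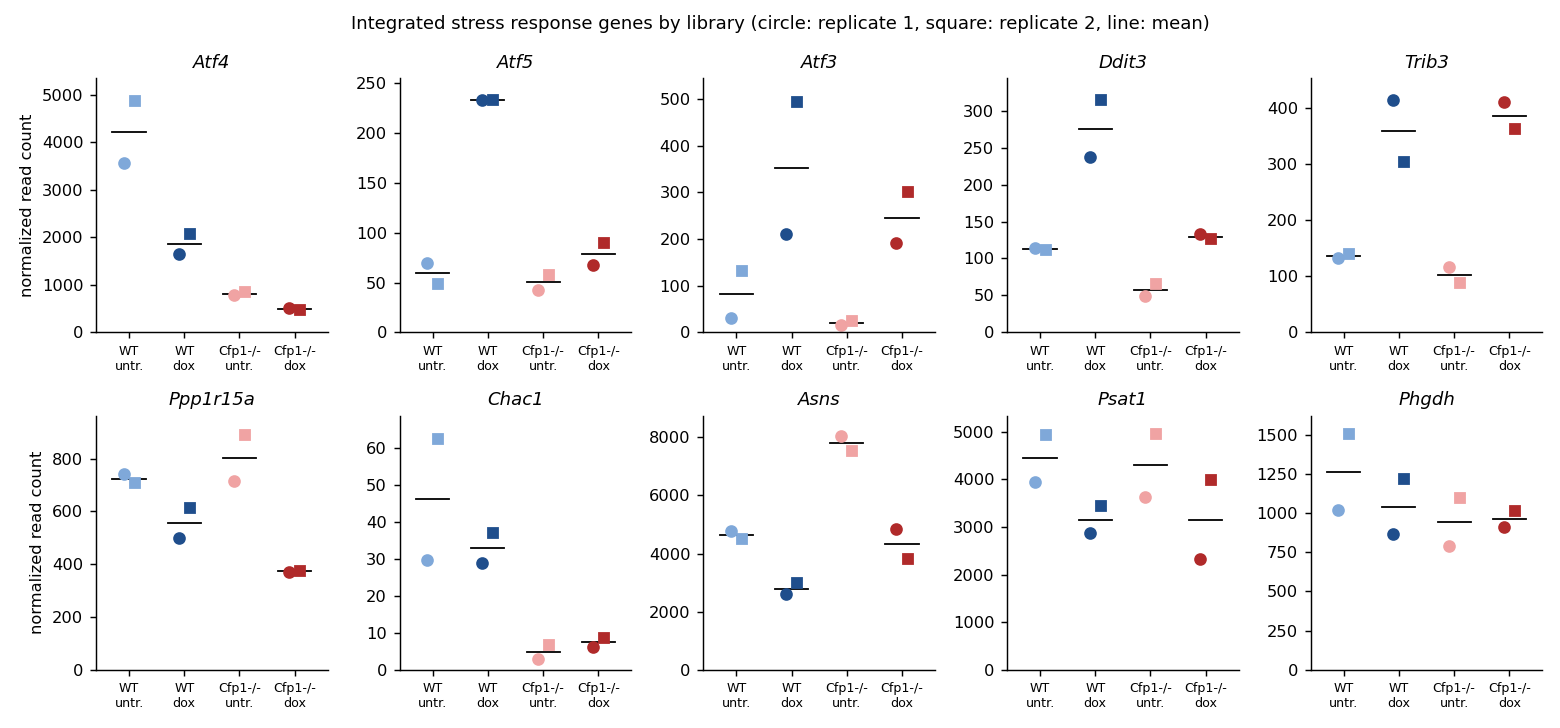
Normalized read count (linear axis from 0) of the 10 genes in each of the 8 libraries, by group (untr., untreated, dox, doxorubicin); circles are replicate 1, squares replicate 2 and lines the mean of 2. Atf4 has a mean of 4217 without and 1859 with doxorubicin in WT cells and is lower in both groups of Cfp1-/- cells, while Trib3 reaches 359 and 386 in the treated groups.

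To ask how the genes responded to doxorubicin, treated cells were compared with untreated cells within each line. In WT cells Atf3, Atf5, Ddit3 and Trib3 rose and Asns and Atf4 fell at an adjusted p under 0.05, which is 4 of 10 members higher (26.5% of all genes tested were called higher) and 2 of 10 lower (21.8% of all genes). In Cfp1-/- cells Atf3, Ddit3 and Trib3 rose and Asns, Atf4 and Ppp1r15a fell, which is 3 of 10 higher (27.8% of all genes) and 3 of 10 lower (21% of all genes). The counts are close to those that the share of all genes would give for 10 genes. The median log2 fold change of the members was -0.28 in WT cells, against 0.06 over all genes tested, and 0.36 in Cfp1-/- cells, against 0.01. The study's stricter call adds 2 limits, 2.5-fold or more and 200 or more normalized read counts on average. Under it Atf3 and Trib3 were higher in WT cells (5.1% of all genes) and Trib3 was higher in Cfp1-/- cells (5.38% of all genes). No member was lower by that call in WT cells (2.8% of all genes) or in Cfp1-/- cells (2.23% of all genes) in edgeR or in DESeq2, although 2 and 3 members were lower at an unadjusted p under 0.05. Scaling by total counts in place of TMM shifted all genes upwards, their median by 0.31 in WT and 0.21 in Cfp1-/- cells on the log2 scale, and the share of calls that were higher from 54.9% to 75.7% and from 57% to 71.9%. With that scaling, 4 members were higher (36.4% of all genes) and 1 lower (11.7%) in WT cells. In Cfp1-/- cells 4 were higher (33.4%) and 2 lower (13.1%). Cell markers moved with the treatment too. Of the 10 ES cell markers, 9 fell in each line. In DESeq2 7 fell in each line, and with total count scaling 5 fell in WT and 7 in Cfp1-/- cells. Fibroblast markers summed to 262 and 245 normalized read counts in untreated and 572 and 424 in treated WT cells, and to 138 and 138 against 406 and 556 in Cfp1-/- cells. Of 7 fibroblast markers tested, 3 were higher and 0 lower with doxorubicin in each line, and in DESeq2 2 were higher in each line. Lum was under 10 in every library. The median of the 7 on the log2 scale stood at -0.18 for WT and at 1.02 for Cfp1-/- cells, so the sums do not show a general rise in WT cells. Col1a1 was the largest part of the sum in treated WT cells, with means of 73.1 without and 283 with doxorubicin. Means of Col1a2 and Col3a1 went from 52.7 and 53.4 to 41 and 29.8 in WT cells. The part of these markers in the responses of the members was not tested.

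**Figure D2:**
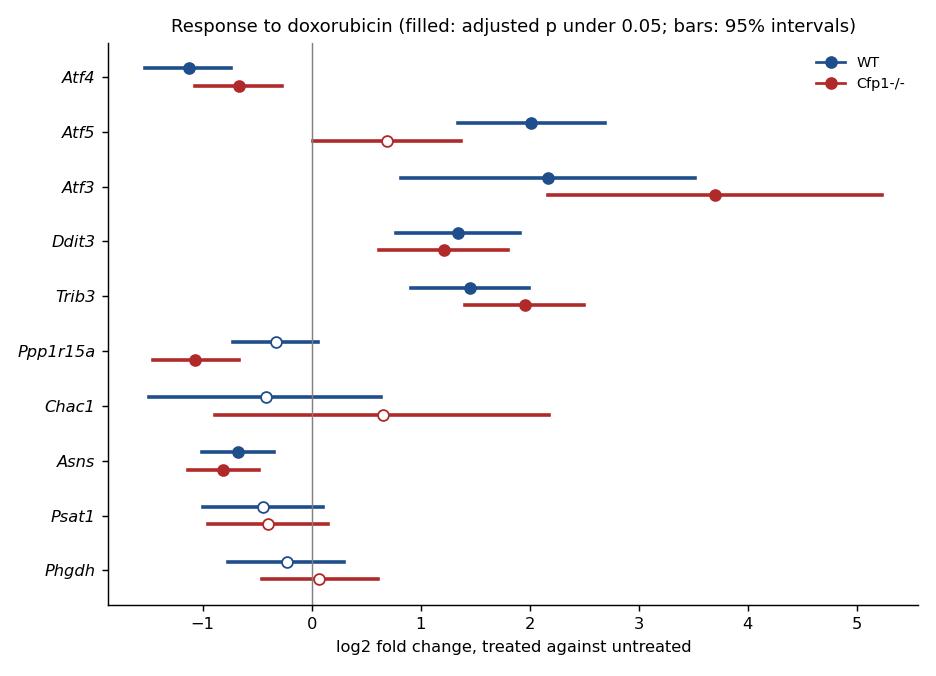
Log2 fold change of treated against untreated cells for each gene in WT (blue) and Cfp1-/- cells (red), with 95% intervals; filled points have an adjusted p under 0.05. Atf3, Ddit3 and Trib3 lie to the right of 0 and Atf4 and Asns to the left in both lines, and Atf5 stands at 2.01 in WT and 0.69 in Cfp1-/- cells.

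Whether the response differed between the lines was tested as an interaction, with positive values where Cfp1-/- cells responded more strongly upwards. None of the 10 members passed the adjusted p of 0.05 in edgeR's test, in DESeq2 or with the replicate number as a block, and 0.235% of all genes did in edgeR's test. At an unadjusted p under 0.05, for which no share over all genes is given here, 2 members were lower in this difference and 0 higher. These were Atf5, at -1.32 (95% interval -2.27 to -0.37, adjusted p = 0.305), and Ppp1r15a, at -0.73 (-1.28 to -0.18, adjusted p = 0.323). The interval of Atf3, 1.53 (-0.46 to 3.52), was wide, and the value was 0.13 without replicate 2 of untreated WT cells and 2.27 without replicate 2 of treated WT cells. The intervals of Ddit3, -0.13 (-0.95 to 0.69), and Asns, -0.12 (-0.59 to 0.34), were centred near 0. These intervals do not show that the lines respond alike.

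The lines were then compared with each other, without and with doxorubicin. These comparisons use the same libraries as the responses and are not independent of them. Without doxorubicin, Asns was higher in Cfp1-/- than in WT cells, 1 of 10 members (17.9% of all genes), and Atf4, Chac1, Atf3 and Ddit3 were lower, 4 of 10 (16.1% of all genes). With doxorubicin, Asns was again higher, 1 of 10 (15.1% of all genes), and Atf4, Chac1, Atf5, Ddit3 and Ppp1r15a were lower, 5 of 10 (10.8% of all genes). The median log2 fold change of the members was -0.38 without and -0.53 with doxorubicin, against 0.01 and 0.02 over all genes tested. When scaled by total counts 2 members were lower without (10.2% of all genes) and 4 with doxorubicin (7.96% of all genes). The share of calls that were higher went from 52.7% to 70.5% and from 58.3% to 69.2%. Markers of primitive endoderm also differed between the lines. Their summed normalized read count was 1834 to 2618 in WT and 7488 to 12994 in Cfp1-/- libraries. Without doxorubicin 3 of 7 tested (Col4a1, Lama1 and Pdgfra) were higher in Cfp1-/- cells, and 4 with the replicate number as a block. Dab2, Gata4, Gata6 and Sox17 were not called without the block, and Foxa2 was under 10 in every library. Gata4 was at 20.4 and 11.5 in untreated WT and 5.56 and 5.92 in untreated Cfp1-/- cells. Means of Gata6 and Dab2 were 9.73 and 141 in untreated WT and 26.6 and 230 in untreated Cfp1-/- cells. At an unadjusted p under 0.05 in edgeR's test, 1 of the 7 was lower. Lama1 was the largest part of the sum in Cfp1-/- cells, with means of 9456 without and 4560 with doxorubicin. Of 7 fibroblast markers tested, 3 were lower and 1 higher in untreated Cfp1-/- than in untreated WT cells. Their part in the differences of the members was not tested. In bulk RNA, fewer cells that express a gene and less RNA of it per cell cannot be told apart.

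**Figure D3:**
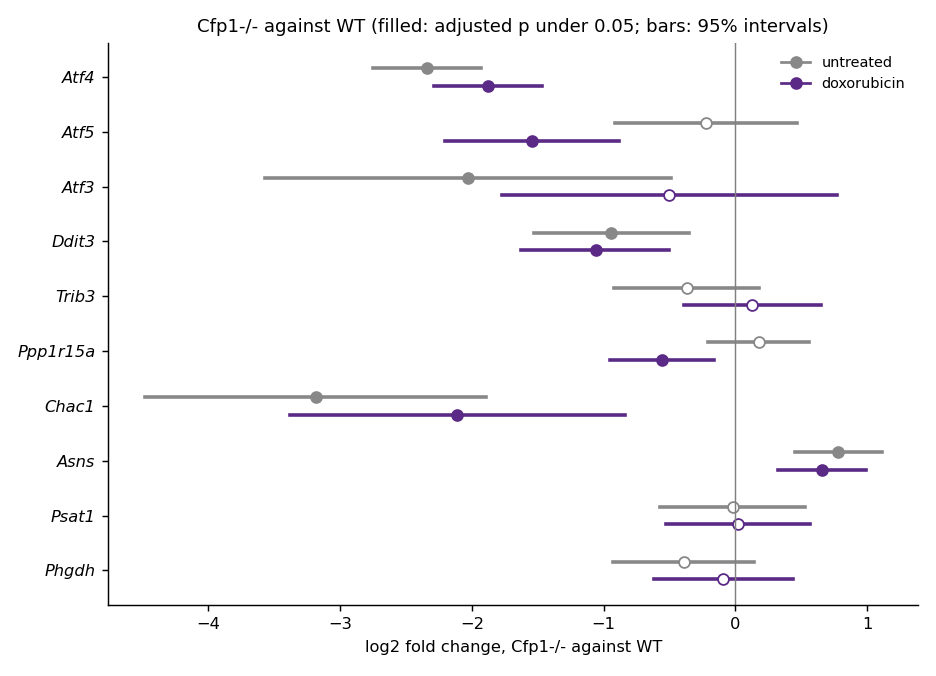
Log2 fold change of Cfp1-/- against WT cells for each gene, untreated (grey) and with doxorubicin (purple), with 95% intervals; filled points have an adjusted p under 0.05. Atf4 and Chac1 lie furthest to the left in untreated cells, at -2.34 and -3.18, and Asns is the gene with filled points to the right.

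Atf4 (ENSMUSG00000042406, chr15:80085614-80087970, + strand) encodes the central transcription factor of the response. Its normalized read counts were 3567 and 4868 in untreated WT, 1651 and 2067 in treated WT, 779 and 852 in untreated Cfp1-/- and 514 and 481 in treated Cfp1-/- cells. No 2 of the 4 groups overlapped, and the order from untreated WT down to treated Cfp1-/- cells was the same in both replicates. With doxorubicin Atf4 was 2.2-fold lower in WT cells (log2 -1.13, standard error 0.176, adjusted p = 0.000637) and 1.59-fold lower in Cfp1-/- cells (log2 -0.67, standard error 0.18, adjusted p = 0.012). The fall in Cfp1-/- cells missed the threshold with total count scaling (-0.46, adjusted p = 0.0592). It also missed it without replicate 2 of untreated Cfp1-/- cells (-0.62, adjusted p = 0.0601) and without replicate 2 of treated Cfp1-/- cells (-0.62, adjusted p = 0.0775). Atf4 was 5.07-fold lower in Cfp1-/- than in WT cells without doxorubicin (log2 -2.34, standard error 0.183, adjusted p = 5.95e-05) and 3.67-fold lower with it (-1.88, standard error 0.183, adjusted p = 0.000317). Leaving out each library in turn gave -2.54 to -2.11 and -2.04 to -1.71.

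Atf5 (ENSMUSG00000038539, chr7:52067627-52072028, - strand) encodes a transcription factor related to ATF4 that is itself a target of the pathway and is, like ATF4, controlled in translation. The libraries gave normalized read counts of 69.7 and 49 in untreated WT, 233 and 233 in treated WT, 42.6 and 57.5 in untreated Cfp1-/- and 67.4 and 89.7 in treated Cfp1-/- cells. Treated WT cells stood above the 3 other groups. The rise was 4.04-fold in WT cells (log2 2.01, standard error 0.3, adjusted p = 0.000495) and 0.69 on the log2 scale in Cfp1-/- cells (95% interval 0.01 to 1.37, adjusted p = 0.0867), which did not pass the test, although the replicates of treated and untreated Cfp1-/- cells did not overlap. The value in Cfp1-/- cells was 0.91 with total count scaling and passed it (adjusted p = 0.0378). In treated cells Atf5 was 2.92-fold lower in Cfp1-/- than in WT cells (log2 -1.54, adjusted p = 0.00573), and without replicate 1 of treated Cfp1-/- cells the adjusted p was 0.0514. Untreated lines overlapped, with a log2 difference of -0.22 (-0.91 to 0.47).

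Atf3 (ENSMUSG00000026628, chr1:192994175-193007219, - strand), whose promoter match is shown above, encodes a stress-induced transcription factor. Its normalized read counts were 31.4 and 132 in untreated WT, 211 and 494 in treated WT, 14.8 and 23.7 in untreated Cfp1-/- and 192 and 300 in treated Cfp1-/- cells. The WT replicates differed more than 2-fold from each other in both groups, and the treated groups lay above the untreated ones in both lines. Atf3 rose 4.51-fold in WT cells (log2 2.17, standard error 0.603, adjusted p = 0.0142) and 13-fold in Cfp1-/- cells (log2 3.70, standard error 0.683, adjusted p = 0.00173). Per replicate number, the log2 response was 2.75 and 1.90 in WT and 3.69 and 3.66 in Cfp1-/- cells. Without replicate 2 of treated WT cells the log2 fold change in WT cells was 1.42 and did not pass (adjusted p = 0.101), and it was 1.46 and 3.52 without replicate 1 and replicate 2 of untreated WT cells. Untreated Cfp1-/- cells had less Atf3 than untreated WT cells (log2 -2.03, adjusted p = 0.0461). This call was lost in 5 of the 8 fits that left out a library. The value was -0.67 without replicate 2 of untreated WT cells (adjusted p = 0.467), -1.72 and -2.40 without replicate 1 and replicate 2 of untreated Cfp1-/- cells (adjusted p = 0.21 and 0.103), and -2.03 without replicate 1 or replicate 2 of treated Cfp1-/- cells (adjusted p = 0.0616 and 0.0622). It was also lost with total count scaling (-1.83, adjusted p = 0.0655) and with untreated groups fitted alone (-2.01, adjusted p = 0.0561). In treated cells the lines overlapped, at a log2 difference of -0.50 (-1.77 to 0.77).

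Ddit3 (ENSMUSG00000025408, chr10:126727830-126733344, + strand) encodes CHOP, a C/EBP family factor linked to cell death under prolonged stress. Normalized read counts of Ddit3 were 114 and 112 in untreated WT, 237 and 314 in treated WT, 49.1 and 65.9 in untreated Cfp1-/- and 133 and 126 in treated Cfp1-/- cells. Treated cells lay above untreated cells in both lines, and Cfp1-/- below WT cells in both conditions. Ddit3 rose 2.52-fold in WT (log2 1.34, standard error 0.254, adjusted p = 0.00203) and 2.31-fold in Cfp1-/- cells (log2 1.21, standard error 0.264, adjusted p = 0.00432). It was 1.92-fold lower in Cfp1-/- than in WT cells without (adjusted p = 0.0219) and 2.09-fold lower with doxorubicin (adjusted p = 0.0144). The difference between untreated lines was lost without replicate 1 or replicate 2 of untreated WT cells (log2 -0.91 and -0.96, adjusted p = 0.0707 and 0.0643) and without replicate 1 of untreated Cfp1-/- cells (-0.73, adjusted p = 0.15). It was also lost with total count scaling (-0.74, adjusted p = 0.0544) and with the 2 groups fitted alone (-0.91, adjusted p = 0.0522). The difference between treated lines was lost without replicate 2 of treated WT cells (-0.85, adjusted p = 0.0951) and without replicate 1 or replicate 2 of treated Cfp1-/- cells (-1.12 and -1.02, adjusted p = 0.068 and 0.0903).

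Trib3 (ENSMUSG00000032715, chr2:152163158-152169768, - strand) encodes a pseudokinase that is a target of ATF4 and CHOP and inhibits both ATF4 activity and AKT. Normalized read counts were 132 and 139 in untreated WT, 415 and 303 in treated WT, 117 and 87.9 in untreated Cfp1-/- and 410 and 362 in treated Cfp1-/- cells. The treated groups overlapped between the lines and lay far above the untreated ones. Trib3 rose 2.74-fold in WT (log2 1.45, standard error 0.241, adjusted p = 0.000917) and 3.88-fold in Cfp1-/- cells (log2 1.96, standard error 0.244, adjusted p = 0.000187). Leaving out each library gave 1.21 to 1.66 and 1.75 to 2.17. The lines differed by -0.37 (-0.92 to 0.18) without and 0.13 (-0.39 to 0.65) with doxorubicin on the log2 scale, neither of which passed the test.

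Ppp1r15a (ENSMUSG00000040435, chr7:52778286-52781638, - strand) encodes GADD34, the inducible subunit that directs protein phosphatase 1 to eIF2alpha and so restores translation. Its normalized read counts were 742 and 707 in untreated WT, 498 and 615 in treated WT, 717 and 891 in untreated Cfp1-/- and 371 and 374 in treated Cfp1-/- cells. Treated cells lay below untreated cells in both lines. The fall was 2.09-fold in Cfp1-/- cells (log2 -1.07, standard error 0.175, adjusted p = 0.000901). In WT cells the value of -0.33 (95% interval -0.72 to 0.06, adjusted p = 0.141) did not pass. In treated cells the gene was 1.47-fold lower in Cfp1-/- than in WT cells (log2 -0.56, adjusted p = 0.0437). That call was lost without replicate 2 of treated WT cells (-0.40, adjusted p = 0.22), replicate 1 of untreated Cfp1-/- cells (-0.55, adjusted p = 0.0517), or replicate 1 or 2 of treated Cfp1-/- cells (-0.56 and -0.55, adjusted p = 0.144 and 0.157). It was also lost with total count scaling (-0.46, adjusted p = 0.0871), with treated groups alone (-0.58, adjusted p = 0.0672), with first technical replicates alone (-0.54, adjusted p = 0.06) and without both divergent second runs (-0.57, adjusted p = 0.0535).

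Chac1 (ENSMUSG00000027313, chr2:119176965-119180117, + strand) encodes a glutathione-degrading enzyme and is a target of ATF4. It was the member with the fewest reads, with normalized read counts of 29.7 and 62.5 in untreated WT, 28.8 and 37 in treated WT, 2.78 and 6.76 in untreated Cfp1-/- and 6.13 and 8.68 in treated Cfp1-/- cells. The raw counts in Cfp1-/- cells were 3 and 8 without doxorubicin and 6 and 9 with it. The exact 95% Poisson interval of the count of 3, which covers counting error only, was 0.619 to 8.77. The WT libraries lay above the Cfp1-/- libraries in both conditions. In Cfp1-/- against WT cells Chac1 stood at -3.18 on the log2 scale without doxorubicin (95% interval -4.48 to -1.89, adjusted p = 0.00309) and at -2.11 with it (-3.38 to -0.84, adjusted p = 0.0238). The value without doxorubicin was -2.57 without replicate 2 of untreated WT cells and -3.95 without replicate 2 of untreated Cfp1-/- cells. The call with doxorubicin was lost without replicate 2 of treated WT cells (-1.92, adjusted p = 0.102) and without replicate 1 or 2 of treated Cfp1-/- cells (-1.90 and -2.37, adjusted p = 0.131 and 0.0924). The response to doxorubicin did not pass the test in either line, at -0.42 (-1.49 to 0.64) in WT and 0.65 (-0.89 to 2.18) in Cfp1-/- cells.

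Asns (ENSMUSG00000029752, chr6:7625169-7643254, - strand) encodes asparagine synthetase, a textbook target of ATF4, and its match, shown above, lies inside the gene's interval in the count table. Its normalized read counts were 4765 and 4507 in untreated WT, 2616 and 2975 in treated WT, 8054 and 7539 in untreated Cfp1-/- and 4843 and 3808 in treated Cfp1-/- cells. Untreated Cfp1-/- cells had the highest level and treated WT cells the lowest, in contrast to Atf4, whose highest level was in untreated WT cells. Asns fell 1.61-fold in WT (log2 -0.68, standard error 0.148, adjusted p = 0.00406) and 1.75-fold in Cfp1-/- cells (-0.81, standard error 0.147, adjusted p = 0.00163). Without both divergent second runs the log2 values were -0.60 in WT (adjusted p = 0.0137) and -0.69 in Cfp1-/- cells (adjusted p = 0.00677). The fall in WT cells was -0.37 with total count scaling and did not pass (adjusted p = 0.0504). Asns was 1.72-fold higher in Cfp1-/- than in WT cells without doxorubicin (adjusted p = 0.00373) and 1.57-fold higher with it (log2 0.66, adjusted p = 0.0115). The latter call was lost without replicate 1 of treated WT cells (0.56, adjusted p = 0.0637) or replicate 1 of treated Cfp1-/- cells (0.45, adjusted p = 0.0854), the libraries whose runs differed. With only their first runs, the line difference with doxorubicin was 0.69 (adjusted p = 0.0155).

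Psat1 (ENSMUSG00000024640, chr19:15979168-16021827, - strand) encodes phosphoserine aminotransferase of serine synthesis. The libraries held normalized read counts of 3947 and 4933 in untreated WT, 2865 and 3443 in treated WT, 3633 and 4949 in untreated Cfp1-/- and 2328 and 3978 in treated Cfp1-/- cells. The second run of replicate 1 of treated Cfp1-/- cells held 100 counts of Psat1 against 2180 in the first run, 16.4 against 185 CPM (counts scaled to the total of the run), so the value of 2328 is too low. Without doxorubicin and with it, the lines overlapped. The log2 fold change by doxorubicin was -0.45 (-1.0 to 0.10, adjusted p = 0.162) in WT and -0.40 (-0.95 to 0.15, adjusted p = 0.204) in Cfp1-/- cells, and neither passed. With the replicate number as a block, both passed (-0.44, adjusted p = 0.0131, and -0.43, adjusted p = 0.0157). When the affected run was also left out of the blocked fit, WT cells passed (-0.44, adjusted p = 0.00304) and Cfp1-/- cells did not (-0.16, adjusted p = 0.204). Without the block, leaving out replicate 2 of treated Cfp1-/- cells, which keeps the library with the affected run, gave -0.83 in Cfp1-/- cells (adjusted p = 0.0281).

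Phgdh (ENSMUSG00000053398, chr3:98117093-98143913, - strand) encodes phosphoglycerate dehydrogenase, the first enzyme of serine synthesis. Normalized read counts of Phgdh were 1020 and 1509 in untreated WT, 865 and 1217 in treated WT, 789 and 1097 in untreated Cfp1-/- and 912 and 1013 in treated Cfp1-/- cells. Every pair of groups compared overlapped. The gene has near-identical sequence elsewhere in the genome, with 10 matches of at least 95% identity and 75 bases covering 96.6% of its transcript, so its counts are less certain than those of the other 9 members, which had no such match. The log2 response was -0.23 (-0.77 to 0.30) in WT and 0.07 (-0.46 to 0.61) in Cfp1-/- cells. Between untreated lines the value was -0.39 (adjusted p = 0.224), and with the replicate number as a block it passed the test (-0.39, adjusted p = 0.0412). Without the block it was -0.09 and -0.16 without replicate 2 of untreated WT or replicate 1 of untreated Cfp1-/- cells, and -0.64 without replicate 1 of untreated WT or replicate 2 of untreated Cfp1-/- cells.

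The agreement between technical replicates was examined for each member, as CPM in the second over the first run. In the 6 libraries whose runs agreed within sampling noise, the ratio of Atf4, Asns, Psat1, Ppp1r15a and Phgdh lay near 1, from 0.897 to 1.12. In replicate 1 of treated Cfp1-/- cells it was 1.4 for Atf4, 1.41 for Ppp1r15a, 1.31 for Phgdh, 0.645 for Asns and 0.0886 for Psat1. Among treated WT cells, the ratio in replicate 1 was 0.684 for Asns, 1.31 for Ppp1r15a, 1.3 for Phgdh, 1.19 for Atf4 and 1.1 for Psat1. The remaining members had few counts, and the most distant ratio among them was 3.93, for 4 and 12 counts of Atf3 in untreated Cfp1-/- replicate 1.

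**Figure D4:**
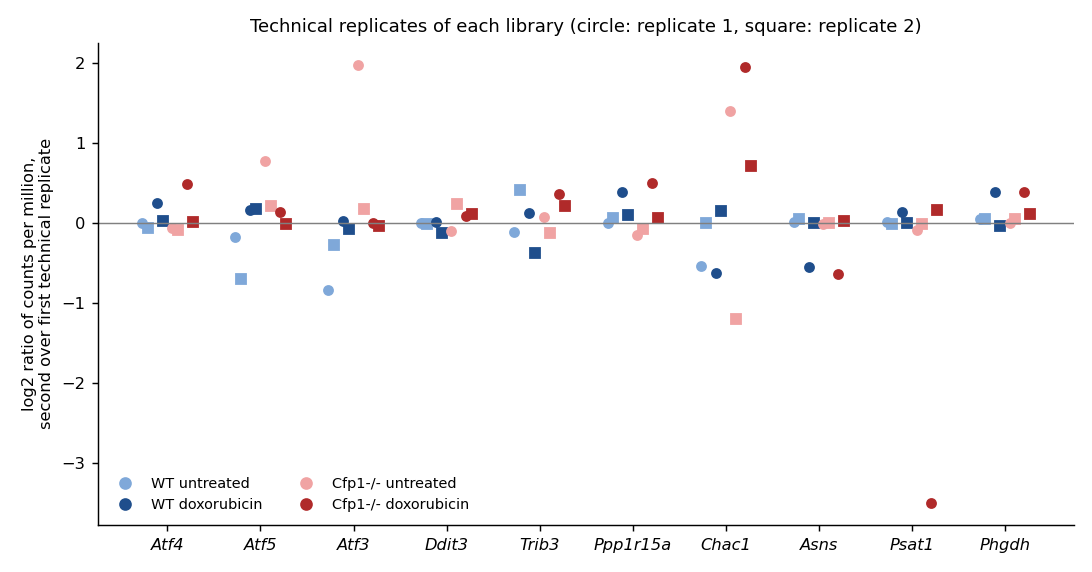
Log2 ratio of CPM (counts scaled to the run's total) in the second over the first technical replicate, for each gene and library; circles are replicate 1 and squares replicate 2. Psat1 in replicate 1 of treated Cfp1-/- cells stands apart at a ratio of 0.0886, and Asns has ratios of 0.645 and 0.684 in the libraries whose runs differed.

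Other genes of the pathway were followed as 7 lists, of which the genes with the largest changes are named. Directions of the lists are relative to the TMM scaling, and the counts with total count scaling are given beside them. For all genes tested, 26.5% were higher and 21.8% lower in WT cells and 27.8% and 21% in Cfp1-/- cells. With total count scaling these shares were 36.4% and 11.7%, and 33.4% and 13.1%. With the replicate number as a block they were 29.8% and 26.1%, and 31.1% and 25.9%. Of 18 eIF2alpha kinases, phosphatase subunits and eIF2B subunits tested, 2 were higher and 8 lower in WT cells (median log2 fold change -0.34) and 1 was higher and 7 lower in Cfp1-/- cells (median -0.25). With total count scaling the counts were 4 and 6 in WT and 3 and 3 in Cfp1-/- cells. Eif2ak4, which encodes the amino acid sensor GCN2, rose in WT (0.80, adjusted p = 0.00117) and in Cfp1-/- cells (1.07, adjusted p = 0.000241). Eif2b4, a subunit of the exchange factor eIF2B, fell by 0.95 and 0.99 on the log2 scale. The phosphatase catalytic subunits Ppp1cb and Ppp1cc fell by 1.11 and 1.03 in WT and by 0.57 and 0.96 in Cfp1-/- cells. The call of Ppp1cb in Cfp1-/- cells was lost without replicate 2 of treated Cfp1-/- cells (-0.34, adjusted p = 0.0944), without replicate 1 of untreated Cfp1-/- cells (-0.56, adjusted p = 0.0526) and with total count scaling (-0.36, adjusted p = 0.0759).

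Among 15 tested partners of ATF4 and related factors, 5 were higher and 6 lower in WT and 5 higher and 5 lower in Cfp1-/- cells, with medians of 0.46 and 0.31. The counts were 6 and 4, and 6 and 3, with total count scaling, and 6 and 7, and 5 and 6, with the replicate block. Cebpb, which encodes a C/EBP partner of ATF4, rose by 1.59 in WT (standard error 0.266, adjusted p = 0.000979) and 2.60 in Cfp1-/- cells on the log2 scale, and Cebpa by 1.54 and 2.70 (1.16, adjusted p = 0.052, in WT cells without replicate 2 of treated WT cells). The repressor gene Jdp2 rose 5.76-fold in WT and 2.29-fold in Cfp1-/- cells, where the call was lost without replicate 1 or replicate 2 of untreated (adjusted p = 0.0551 and 0.0526) or replicate 2 of treated Cfp1-/- cells (adjusted p = 0.0615). Trib1, a relative of Trib3, moved the other way, at -1.71 and -2.58, and at -3.35 without replicate 1 of treated Cfp1-/- cells. Batf had at most 20.2 normalized read counts in any library and log2 fold changes of 2.74 and 2.55, and both calls were lost in DESeq2 (adjusted p = 0.0902 and 0.078). The call in WT cells was also lost without replicate 1 or replicate 2 of untreated WT cells (adjusted p = 0.0847 and 0.108) and without replicate 2 of treated WT cells (1.85, adjusted p = 0.236), and that in Cfp1-/- cells without replicate 2 of untreated or of treated Cfp1-/- cells (adjusted p = 0.111 and 0.12).

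Of 12 amino acid transporters, 3 were higher and 4 lower in WT and 3 higher and 5 lower in Cfp1-/- cells, with medians of -0.03 and 0.02. Scaled by total counts, they were 4 and 4, and 4 and 3. With the replicate block 4 were higher in WT and 5 in Cfp1-/- cells. The glycine transporter gene Slc6a9 rose from 10.2 and 38.6 to 143 and 130 normalized read counts in WT cells, a log2 fold change of 2.56 that was 1.86 and 3.75 without replicate 1 and replicate 2 of untreated WT cells. It rose by 3.06 in Cfp1-/- cells, and Slc38a7 rose by 1.55 and 1.67. Slc7a3, a cationic amino acid transporter gene, fell from 3870 and 3572 to 694 and 736 in WT cells, at -2.33, and by 1.80 in Cfp1-/- cells. It lies on chromosome X, and without the run that had lost those counts the value in Cfp1-/- cells was -1.52 (adjusted p = 6.04e-05).

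Of 16 enzymes of serine, one-carbon, proline and transsulfuration metabolism, which share pathways with Psat1 and Phgdh, 1 was higher and 6 lower in WT and 2 higher and 7 lower in Cfp1-/- cells, with medians of -0.38 and -0.28. Total count scaling gave 3 and 3, and 4 and 5, and with the replicate block 2 were higher and 8 lower in WT cells. Cbs, the first enzyme of transsulfuration, rose by 2.20 and 2.06 on the log2 scale. Shmt1 and Mthfd2, of one-carbon metabolism, fell by 1.16 and 0.94 in WT and by 0.98 and 0.65 in Cfp1-/- cells. The call of Mthfd2 in Cfp1-/- cells was lost with total count scaling (-0.44, adjusted p = 0.0896), without replicate 2 of untreated (adjusted p = 0.0868) and without replicate 1 or replicate 2 of treated Cfp1-/- cells (adjusted p = 0.0755 and 0.0764). Aldh18a1, of proline synthesis, fell by 0.84 and 1.14, and it stood at -0.89 in Cfp1-/- cells without the run with lost counts, since it lies on chromosome 19. Its call in WT cells was lost with total count scaling (-0.52, adjusted p = 0.127), without replicate 1 or replicate 2 of untreated (adjusted p = 0.0536 and 0.0621) and without replicate 1 of treated WT cells (adjusted p = 0.0816). Aldh1l2 fell in Cfp1-/- cells (-1.03, adjusted p = 0.0138) but this was lost without replicate 1 or 2 of untreated (adjusted p = 0.0533 and 0.0548) or of treated Cfp1-/- cells (adjusted p = 0.081 and 0.057), and in WT cells it was at -0.05.

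Among the 20 cytosolic aminoacyl-tRNA synthetases more were called lower than higher in both lines. In WT cells 15 were lower and none higher in edgeR (0 also at an unadjusted p under 0.05 and in DESeq2), with a median of -0.49, and in Cfp1-/- cells 11 were lower and 1, Cars, was higher, with a median of -0.43. With total count scaling 6 were lower and 1 higher in WT and 3 lower and 1 higher in Cfp1-/- cells, and with the replicate block 17 and 15 were lower. Yars, Tars and Sars stood at -0.97, -0.96 and -0.95 in WT and at -0.55, -0.69 and -0.73 in Cfp1-/- cells, where Yars did not pass with total count scaling (-0.34, adjusted p = 0.0671). Farsb fell by 0.84 and 0.70. Cars was at 0.23 in WT (adjusted p = 0.168, and 0.55 with adjusted p = 0.00768 with total count scaling) and 0.88 in Cfp1-/- cells (adjusted p = 0.000495). Without doxorubicin 9 of the 20 were lower in Cfp1-/- than in WT cells and none higher in edgeR, with 0 higher at an unadjusted p under 0.05 or in DESeq2, and 5 were lower with total count scaling. With the replicate block 11 were lower. Over all genes 16.1% were lower in that comparison, 10.2% with total count scaling and 21.3% with the replicate block.

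Of the 21 secreted, signalling and autophagy targets of ATF4 or CHOP, 18 were tested. In WT cells 8 were higher and 1 lower, and in Cfp1-/- cells 8 were higher and none lower (1 at an unadjusted p under 0.05 and 1 in DESeq2), with medians of 0.50 and 0.59. Scaled by total counts, 13 and 11 were higher and none lower. With the replicate block 12 and 11 were higher and 1 was lower in each line. Ddit4, an inhibitor of mTORC1 that p53 also activates, rose from 129 and 245 to 1309 and 1256 normalized read counts in WT cells and from 112 and 134 to 958 and 861 in Cfp1-/- cells, at 2.83 and 2.92 on the log2 scale. Gdf15, a secreted stress cytokine that is likewise a p53 target, rose by 2.88 and 2.43. Bbc3, which the study lists in the p53-dependent response to doxorubicin, went from 219 and 312 to 735 and 736 in WT cells. In Cfp1-/- cells Bbc3 went from 241 and 317 to 665 and 567. Activation by p53 and by ATF4 or CHOP cannot be told apart in the counts of this list. Cdsn rose by 2.98 in WT cells (3.85 without replicate 1 of untreated WT cells), and in Cfp1-/- cells its value of 1.02 missed the threshold (adjusted p = 0.0836) and passed with the replicate block (adjusted p = 0.0176), total count scaling (adjusted p = 0.0446) and the Cfp1-/- groups alone (adjusted p = 0.0302). Vldlr rose by 2.01 in Cfp1-/- cells (adjusted p = 0.0258), a call lost without replicate 1 of untreated (adjusted p = 0.153) or replicate 2 of treated Cfp1-/- cells (1.07, adjusted p = 0.265), and at 2.70 without replicate 2 of untreated Cfp1-/- cells. It lies on chromosome 19 and was at 2.20 without the run with lost counts (adjusted p = 0.0107). In WT cells it was at 1.31 (adjusted p = 0.108), and at 1.34 with the replicate block (adjusted p = 0.001). It also passed there without a count filter (adjusted p = 0.0414), with first technical replicates alone (adjusted p = 0.0374) and without replicate 2 of untreated WT cells (2.10, adjusted p = 0.047).

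The ATF6 and XBP1 branches of the unfolded protein response, the arms that run beside the kinase PERK, gave 2 genes higher and 10 lower of 23 tested in WT and 2 higher and 9 lower in Cfp1-/- cells, with medians of -0.31 and -0.46. Total count scaling gave 4 and 8, and 3 and 8, and with the replicate block 11 were lower in each line. Hspa5, which encodes the chaperone BiP, fell from 31439 and 31209 to 10528 and 11918 normalized read counts in WT cells, a log2 fold change of -1.43, and by 1.21 in Cfp1-/- cells. Xbp1, the factor spliced by IRE1, fell by 2.38 and 1.55. Pdia4 fell by 1.50 and 0.66 (-0.46, adjusted p = 0.0502, without replicate 2 of untreated Cfp1-/- cells), and its response difference of 0.85 (adjusted p = 0.197) passed with the replicate block (0.86, adjusted p = 0.0328). Edem1, which acts in the degradation of misfolded protein, rose by 1.01 and 1.37. None of the genes of the 7 lists passed the test of the response difference in edgeR, at an adjusted p under 0.05, or in DESeq2. The numbers at an unadjusted p under 0.05, for which no share over all genes is given here, ran from 1 to 4 genes a list.

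**Figure D5:**
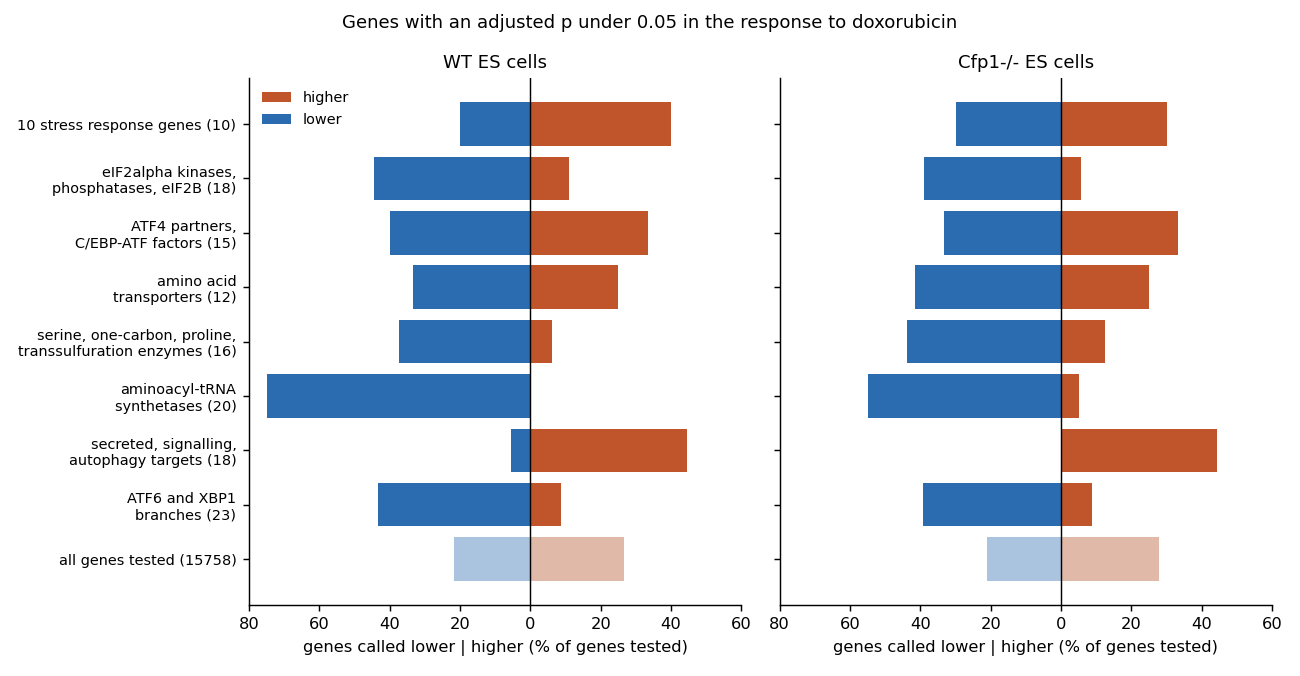
Share of genes called higher (orange, right of 0) or lower (blue, left of 0) at an adjusted p under 0.05 in the response to doxorubicin, in percent of the genes tested, for the 10 stress response genes, the 7 lists and all genes tested (pale), with the number tested in brackets. Synthetases reach furthest to the left, with 15 of 20 lower in WT cells, and the secreted, signalling and autophagy targets have 8 of 18 higher in both lines. The latter list includes genes that p53 also activates.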

How the data were processed

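RNA-Seq libraries of 16 samples (4 groups, 2 biological replicates, 2 technical replicates) were analysed from 2 deposited tables. The authors aligned paired-end reads to NCBIm37 (mm9) with STAR (version 2.2.1 in the submitters' processing notes) and used HTSeq-count to count unambiguous sense reads per Ensembl gene. They deposited raw counts per technical replicate, and a normalized signal per biological replicate, in which the summed counts of a library were scaled by its DESeq size factor and rounded. Reads that match near-identical genes may be lost by such counting, and small antisense overlaps of up to 82 bases (Atf5, Ddit3, Ppp1r15a) are kept apart by strand.

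Technical replicates were summed. Fold changes were computed from the counts with edgeR 4.0.16 in R 4.3.3 (filterByExpr, TMM, 1 coefficient per group, glmQLFit and glmQLFTest, two-sided, Benjamini-Hochberg over 15758 genes) on all 8 libraries. Standard errors and 95% intervals follow from the test statistic. Residual degrees of freedom were 4, with 5.62 prior degrees of freedom. Levels are means of the deposited values, and per-kb levels use exon lengths of an annotation of the same build. Total counts of 14880589 to 29422711 set the precision. The scripts were tested on simulated data. DESeq2 1.42.0, other scalings, no count filter, single runs, the groups compared alone, a replicate block and each library left out were the alternatives. Fits without both divergent second runs were added after the data were seen. Same-numbered libraries deviated together (correlations of 0.14 to 0.451 over 15758 genes in all 6 pairs of groups), although no source says what the number marks. The reported tests do not use the number. The fit with the number as a block is given for results of the members and lists whose call or count it changes.

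The members and lists were chosen with earlier results of these data known. Genes whose changes are given from the lists are the 3 with the largest called change in each line and any with a called response difference. Bbc3 is given besides, as a gene of the p53-dependent response. No column of per-sample values was left unused.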

Additional observations from a re-analysis of the deposited data

Results flagged for a closer look

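The response of Chac1 was below 0 in both WT replicates and above 0 in both Cfp1-/- replicates, although the value of 1 WT replicate was close to 0. Its log2 response per replicate number was -0.04 and -0.76 in WT and 1.14 and 0.36 in Cfp1-/- cells, and the response difference was 1.07 (95% interval -0.80 to 2.94, adjusted p = 0.711 by edgeR's interaction test), so the difference did not pass its test. Leaving out each library gave 0.42 to 1.83 for the difference and 0.17 to 1.40 for the response in Cfp1-/- cells, which was -0.09 with first technical replicates alone. The raw counts in Cfp1-/- cells were 3 and 8 without and 6 and 9 with doxorubicin.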

How the results depend on the processing

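No member call changed with DESeq2's Wald test, DESeq2 size factors or no count filter. With total count scaling 1 member was lower in WT cells with doxorubicin, and 2 were lower in untreated Cfp1-/- against WT cells, as with those groups alone. With the replicate block and without both divergent runs, 4 members were lower in WT cells with doxorubicin and 2 higher in treated Cfp1-/- against WT cells. Without a mean count limit 4 members passed the stricter call upwards in WT and 2 in Cfp1-/- cells, and with a 2-fold limit 1 passed it downwards in each line. Leaving out each library, 2 to 4 members were lower between untreated lines (2 without WT untreated replicate 2 or Cfp1-/- untreated replicate 1). Between treated lines 0 to 1 were higher (0 without replicate 1 of either line) and 1 to 5 lower (1 without Cfp1-/- treated replicate 1, 2 without replicate 2 of either line).

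The replicate block changed the calls of Psat1 in WT (adjusted p = 0.0131) and Cfp1-/- cells (0.0157) and of Phgdh between untreated lines (0.0412), and no other member call. The call of Psat1 in Cfp1-/- cells was lost when the affected run was left out of the blocked fit. The block combined with leaving out both divergent runs gave calls of Ppp1r15a in WT cells (-0.42, adjusted p = 0.0359) and Psat1 between treated lines (0.28, adjusted p = 0.0455).

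The following log2 values, none of which passed the test, changed sign, and the cause was not tested. With total count scaling Psat1 was at -0.05 for the response difference and 0.17 between untreated lines, Phgdh at 0.08 for the WT response and 0.01 between treated lines, and Aldh1l2 at 0.26 for the WT response. With first technical replicates alone Chac1 in Cfp1-/- cells was at -0.09 and Psat1 between untreated lines at 0.04. Psat1 was also at 0.005 between untreated lines with those groups alone, and between treated lines at -0.0003 in DESeq2 and -0.01 with the block.

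When each library was left out in turn, the range was -0.99 to 0.24 for Atf3 between treated lines, -0.45 to 0.07 for Atf5 between untreated lines, -0.33 to 0.09 for Ddit3 and -0.32 to 0.05 for Asns in the response difference, -0.08 to 0.37 for Trib3 between treated lines and -0.87 to 0.18 for Chac1 in WT cells. For Psat1 it was -0.38 to 0.37 in the response difference, -0.25 to 0.20 between untreated and -0.41 to 0.34 between treated lines. For Phgdh it was -0.51 to 0.06 in WT cells, -0.15 to 0.31 in Cfp1-/- cells, -0.04 to 0.57 in the response difference and -0.32 to 0.18 between treated lines. For Aldh1l2 in WT cells it was -0.43 to 0.25. Chac1 could not be tested with the Cfp1-/- groups alone, where its counts fell under the filter. With 1 library left in a group, its spread was taken to be that of the others. With 2 libraries a group, intervals are wide for Atf3 and Chac1.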
